A study of Drosophila melanogaster with 16 samples.

Results

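The don juan genes (dj and djl), the janus-ocnus genes (janA, janB and ocn), gdl, Mst36Fa, Mst36Fb and Mst89B are 9 genes of Drosophila melanogaster best known from the male germ line. They were chosen by name: a gene was taken as measured if an array probe set (the group of short probes that reports 1 transcript) carried exactly its symbol in the platform annotation. Of the 9 genes, dj, djl, janB, ocn and Mst89B had 1 probe set each, among 13966 probe sets on the array and 10844 genes with a probe set of 1 symbol. No probe set carried the symbol or gene identifier of janA, gdl, Mst36Fa or Mst36Fb, and their transcripts were not analysed here. For these genes only the neighbours on the chromosome arm are described.

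RNA of dissected adult testes was hybridised to 16 single-colour oligonucleotide arrays, 1 sample to each. The groups were wild-type testes (5 arrays), bgcn- testes, called bgcn (5 arrays), and Os+bgcn- testes, called Os+bgcn (6 arrays), and the design text calls the arrays of a group biological replicates. bgcn (benign gonial cell neoplasm) is needed for germ cells to leave the dividing spermatogonial stage. Both mutant groups carry the bgcn- genotype, the alleles and the age of the flies are not given in the sources used here, and the labels do not spell out Os or what drives it. Each bgcn sample pooled 750 testes and each other sample 150, and about 5 µg of RNA was labelled per sample. For the wild-type samples the extraction protocol names bgcn- testes, whereas titles and source names say wild type, which the groups here follow. All 5 measured genes had at least 273.8 units of signal on every array labelled wild type and at most 49.2 on every mutant array.

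Spermatocytes transcribe most of the genes that spermatids use later, and many of these messages are stored untranslated until the spermatid elongates. dj encodes a basic protein of spermatid mitochondria and the sperm tail, and djl is its sequence relative beside it. janA, janB and ocn are tandem relatives of 1 small protein family related to phosphohistidine phosphatases, of which janA is known from both sexes and janB and ocn from the testis. gdl makes different transcripts in male and female gonads, and the Mst genes were named for male-specific transcripts.

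The deposited values were signal intensities, with array medians of 56.2 to 59.4 (wild type), 67.8 to 74.2 (bgcn) and 66.95 to 74.5 (Os+bgcn). Summed over 28 other late spermatogenesis genes, the signal was 197781 to 222536 on the wild-type arrays, 1182 to 2202 on the bgcn arrays and 1354 to 1915 on the Os+bgcn arrays. Early germ line markers such as vas and bam, 9 genes with a probe set, went the other way, with sums of 208 to 393, 4253 to 5562 and 9397 to 11482. In whole testes, fewer cells of a type and less RNA per cell cannot be told apart, and this holds for every difference given here. Accessory gland genes, 12 with a probe set, mark an organ that lies beside the testis. Their sums were 4427 to 15394 on wild-type, 2636 to 16460 on bgcn and 301 to 1870 on Os+bgcn arrays. The lowest signal of any probe set was 0.1, so a value above 0 does not show that a transcript was present. Muscle sheath genes summed to 498 to 796, 2412 to 3134 and 561 to 1512. The part of these tissues in the results below was not tested.

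In the janus-ocnus cluster both measured genes were bright in wild type and near the bottom of the signal range in both mutants. The wild-type arrays gave janB (probe set 143206_at, locus CG7931, chromosome arm 3R) signals of 6672.8, 6603.9, 5639.3, 5294.0 and 6353.2. The bgcn arrays gave it 18.3, 49.2, 9.6, 19.0 and 25, and the 6 Os+bgcn arrays had a lowest value of 6.5, a median of 18.3 and a highest of 32.8. Every wild-type array therefore lay above every mutant array, and bgcn replicate 2, at 49.2, was the 1 mutant array above 42.9, the 40th percentile of all values. The accessory gland sums of bgcn replicates 1 to 5 were 16460, 13051, 7193, 2636 and 7390, and a relation to the janB signal was not tested. The wild-type mean was 6112.6 ± 613.8 (SD, n = 5), against 24.2 ± 15.0 (SD, n = 5) in bgcn and 19.6 ± 10.8 (SD, n = 6) in Os+bgcn.

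ocn (probe set 151842_at, locus CG7929, arm 3R), the cluster's other testis gene, gave 7580.2, 6716.4, 5995.5, 5762.8 and 5451.0 in wild type. It gave 2.1, 9.4, 1.6, 3.0 and 4.0 in bgcn, and a lowest, median and highest value of 1.5, 2.6 and 4.6 in Os+bgcn. All 11 mutant arrays lay below 18.8, the 25th percentile of all values, so the ocn signal of the mutants has no order that the arrays could resolve.

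dj (probe set 143902_at, locus CG1980, arm 3R), the sperm-tail gene, gave 4974.5, 4853.2, 4661.3, 4065.0 and 4159.7 in wild type. It gave 5.6, 5.1, 2.4, 15.5 and 5.2 in bgcn, and 2.0, 5.5 and 23.1 as lowest, median and highest value in Os+bgcn. The groups did not overlap, and 10 of the 11 mutant arrays were below 18.8. Its relative djl (probe set 149417_at, locus CG1984, arm 3R) gave 320.6, 424.5, 273.8, 316.8 and 295.1 in wild type, against 10.9, 2.0, 18.8, 1.7 and 12.4 in bgcn and a lowest, median and highest value of 1.0, 9.75 and 24.5 in Os+bgcn. Here too no mutant array reached a wild-type array.

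Mst89B (probe set 143925_at, locus CG6864, arm 3R) varied least among the wild-type arrays, with 980.8, 918.9, 948.4, 868.8 and 973.1. It gave 11.3, 31.3, 6.3, 4.9 and 19.0 in bgcn, and its lowest, median and highest Os+bgcn values were 3.8, 6.05 and 7.4. The wild-type coefficient of variation was 4.9% for Mst89B, 9.0% for dj, 13.5% for ocn and 17.8% for djl. Wild-type replicate 1 held the highest value of janB, ocn, dj and Mst89B, and wild-type replicate 2 that of djl.

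**Figure D1:**
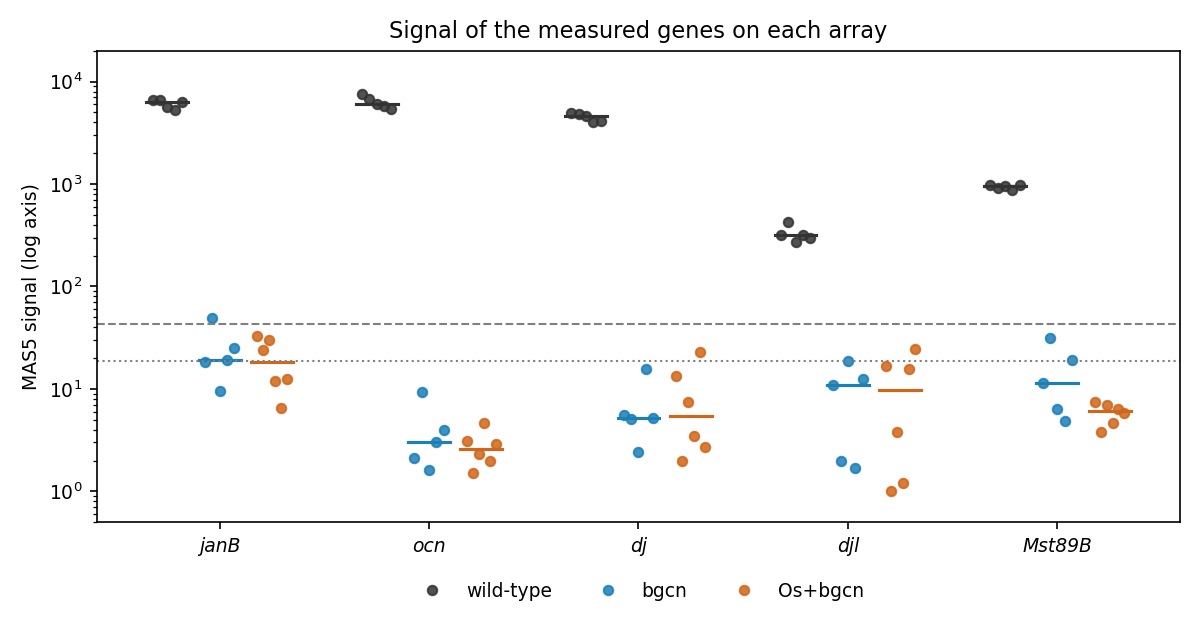
MAS5 signal (vertical, log axis) of the 5 measured genes on each of the 16 arrays, 1 point per array, with a short bar at each group's median. The dashed line is 42.9, the level used in the filter on low values, and the dotted line is 18.8, the 25th percentile of all values. Every wild-type array lies above both lines and above every mutant array, and 1 mutant value, janB at 49.2, lies above the dashed line.

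Differences between groups were estimated as log2(signal + 18.8) with limma's moderated test over all 16 arrays, and p-values were adjusted by Benjamini-Hochberg over the 10422 probe sets tested (signal above 42.9 on at least 5 arrays). ocn differed from wild type by -8.11 ± 0.15 (SE) in bgcn (limma adjusted p = 1.8e-19) and by -8.19 ± 0.14 in Os+bgcn (limma adjusted p = 6.6e-20). janB differed by -7.21 ± 0.22 in bgcn (limma adjusted p = 3.5e-16) and by -7.36 ± 0.21 in Os+bgcn (limma adjusted p = 1.1e-16). Both genes of the cluster thus fell in both mutants, which share the wild-type arrays as their control.

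dj differed by -7.49 ± 0.20 in bgcn (limma adjusted p = 4.0e-17) and by -7.42 ± 0.19 in Os+bgcn (limma adjusted p = 1.7e-17). djl differed by -3.65 ± 0.25 in bgcn (limma adjusted p = 6.7e-11) and by -3.61 ± 0.24 in Os+bgcn (limma adjusted p = 3.2e-11). Mst89B differed by -4.90 ± 0.19 in bgcn (limma adjusted p = 1.5e-14) and by -5.28 ± 0.19 in Os+bgcn (limma adjusted p = 2.0e-15). On this scale the pseudocount limits how negative the value of a gene with a lower wild-type signal can become, as for djl and Mst89B.

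All 5 measured genes were called lower in each mutant, where 22.6% of all tested probe sets were called lower in bgcn and 24.2% in Os+bgcn. Probe sets called higher made up 47.2% in bgcn and 47.3% in Os+bgcn, and the median difference of all tested probe sets was 0.46 and 0.43. Every bgcn array lay below every wild-type array for 19.3% of all tested probe sets, and every Os+bgcn array did for 20.1%. Each of the 5 genes passed the filter on low values only through the wild-type arrays, so a tested member had to differ, and the count of 5 does not support a statement about the genes as a group.

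Because the mutant signals are near the floor, the ratios are bounds. The lowest wild-type array exceeded the higher of 42.9 and the highest mutant array at least 127.1-fold for ocn, at least 107.6-fold for janB and at least 94.8-fold for dj. The same bound was at least 20.3-fold for Mst89B and at least 6.4-fold for djl.

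janB and ocn were compared within each array, although in the mutants both lie near the floor. The log2 difference of janB minus ocn was -0.04 ± 0.16 (SD, n = 5) in wild type, 0.86 ± 0.29 (SD, n = 5) in bgcn and 0.79 ± 0.43 (SD, n = 6) in Os+bgcn. The shift from wild type was 0.90 in bgcn (exact permutation test, two-sided p = 0.0079, adjusted p = 0.012 over 3 tests), the smallest p that 5 against 5 arrays can give. In Os+bgcn the shift was 0.83 (exact permutation p = 0.0043, adjusted p = 0.012), also the smallest possible.

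These shifts do not show that ocn fell further than janB. In the mutants ocn lay below 18.8 on all 11 arrays and janB on 5, and janB lay above 42.9 on 1. The difference there is thus between signals near the floor, and its size moves with the pseudocount. What the remaining janB signal reflects was not tested. With the pseudocount at the 10th percentile, 7.3, the shifts were 1.44 in bgcn and 1.37 in Os+bgcn, and with none they were 2.72 and 2.76. Between the mutants the janB minus ocn difference changed by -0.07 (exact permutation p = 0.74). The planned comparisons with janA could not be run.

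The mutants were next compared with each other, to see whether the Os+bgcn- genotype moved these genes away from their level in bgcn-. limma called 0 of the 5 genes different, with 0 at an unadjusted p under 0.05, where 8.91% of all tested probe sets were lower and 11.6% higher in Os+bgcn. janB differed by -0.15 (95% interval -0.59 to 0.29) and ocn by -0.08 (-0.37 to 0.22). dj differed by 0.08 (-0.32 to 0.47) and djl by 0.04 (-0.46 to 0.54). These intervals describe signals near the floor, where a difference in transcript level is hard to see.

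Mst89B came nearest to a difference between the mutants, with -0.38 (95% interval -0.77 to 0.00, limma unadjusted p = 0.053, adjusted p = 0.16). Its Os+bgcn arrays lay between 3.8 and 7.4, inside the bgcn range of 4.9 to 31.3 or just below it. Without bgcn replicate 2, the array at 31.3, the difference was -0.22 (limma adjusted p = 0.42). When the signals were centred on ribosomal protein genes it was 0.14 (limma adjusted p = 0.78).

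**Figure D2:**
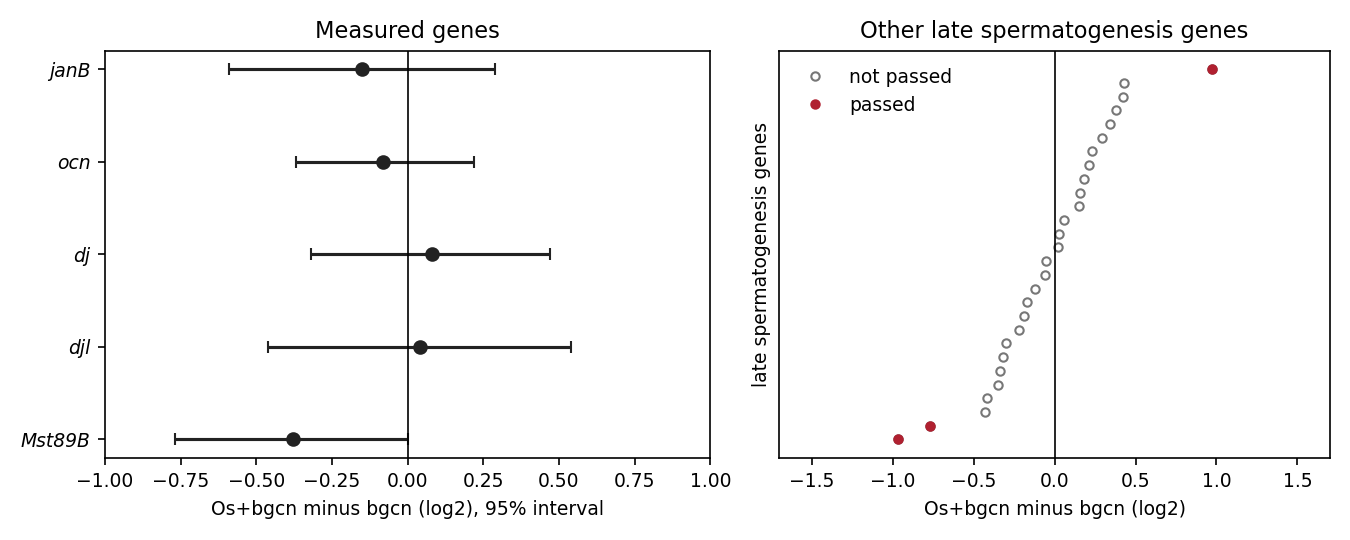
Differences between Os+bgcn and bgcn on the log2(signal + 18.8) scale. Left, the 5 measured genes with limma's 95% interval, which includes 0 for each. Right, 28 other late spermatogenesis genes sorted by their difference, of which 3 passed the test (filled) and 25 did not (open).

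Other genes of late spermatogenesis were also lower in both mutants. Of a list of 39, 28 had a probe set, and all 28 were lower in bgcn (median difference -6.08) and all 28 in Os+bgcn (median -6.26). Among all tested probe sets 22.6% were lower in bgcn and 24.2% in Os+bgcn. Of the 28, 17 had passed the filter only through the wild-type arrays. Mst84Db, which encodes a cysteine-rich sperm protein, differed by -9.53 ± 0.30 in bgcn (limma adjusted p = 4.8e-16), and its relative Mst84Dc by -9.27 ± 0.23 in Os+bgcn (limma adjusted p = 1.2e-17). Between the mutants 1 of the 28 was higher and 2 were lower in Os+bgcn. These were Mst84Db at 0.97 ± 0.29 (limma adjusted p = 0.021) and the sperm aminopeptidase genes S-Lap7 at -0.97 ± 0.25 (limma adjusted p = 0.0094) and S-Lap5 at -0.77 ± 0.26 (limma adjusted p = 0.042), with 1 call left of 3 when bgcn replicate 5 was omitted.

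Genes that regulate transcription in spermatocytes, on which late genes of this kind depend, were lower in part. Of 17 listed, 11 were tested, and 9 were lower in each mutant, with medians of -1.66 in bgcn and -1.55 in Os+bgcn. Among all tested probe sets 22.6% were lower in bgcn and 24.2% in Os+bgcn. Of the 11, 6 had passed the filter only through the wild-type arrays. The bromodomain gene tbrd-1 differed by -3.21 ± 0.24 in bgcn (limma adjusted p = 2.9e-10) and -3.35 ± 0.23 in Os+bgcn (limma adjusted p = 6.2e-11). topi, a zinc finger gene of the meiotic arrest class, differed by -3.10 ± 0.18 and -2.98 ± 0.17 (limma adjusted p = 4.5e-12 and 3.5e-12). The 9 were not the same genes in both mutants. aly and tomb, other meiotic arrest genes, did not pass in bgcn, at -0.59 ± 0.33 (limma adjusted p = 0.12) and -0.01 ± 0.36 (limma adjusted p = 0.97), and mia and tomb did not pass in Os+bgcn, at -0.11 ± 0.18 (limma adjusted p = 0.59) and 0.09 ± 0.34 (limma adjusted p = 0.82). mia, which encodes a testis-specific TAF, was lower in bgcn, at -0.99 ± 0.19 (limma adjusted p = 1.1e-04), and was the 1 gene of the 11 that differed between the mutants, higher in Os+bgcn by 0.87 ± 0.18 (limma adjusted p = 0.0018). aly was lower in Os+bgcn, at -0.94 ± 0.32 (limma adjusted p = 0.012), and the mutants differed by -0.36 ± 0.32 (limma adjusted p = 0.48).

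The chromosomal surroundings were examined because the janus-ocnus genes lie in tandem. Genes within 10 kb of the 9 genes in the Release 6 annotation were taken as neighbours, and the files name no genome build, so only their order is used. This gave 47 annotated genes, of which 9 are those studied, and 33 probe sets for 32 neighbour genes, 29 of them tested. In bgcn, 15 neighbours were higher, 6 lower and 8 did not pass, with a median of 0.78 beside 0.46 for all tested probe sets, of which 47.2% were higher and 22.6% lower. In Os+bgcn, 18 were higher, 5 lower and 6 did not pass, with a median of 0.84 beside 0.43 and shares of 47.3% and 24.2%. The neighbours' counts were not tested against those shares, and nothing particular to the neighbours as a group is read from them. Centred on ribosomal protein genes, all tested probe sets had a median of -1.56 in bgcn and -1.07 in Os+bgcn, and 0 and 1 of the 29 neighbours were higher while 20 and 14 were lower, so the sign of a small difference rests on the scaling.

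In order along the arm, the janus-ocnus neighbourhood runs Axn, ZIPIC, ocn, janB, janA, Sry-alpha, Sry-beta, Sry-delta, RpL32, CG7943 and CG15528, leaving out 2 antisense RNAs, and the annotated spans of janB and janA overlap. None of the 8 neighbours with a probe set was lower in either mutant on the scale used here. ZIPIC, a zinc finger gene on the ocn side, differed by 0.09 ± 0.13 in bgcn (limma adjusted p = 0.56) and 0.35 ± 0.12 in Os+bgcn (limma adjusted p = 0.017). Sry-alpha, a gene of embryonic cellularisation on the janA side, differed by 0.43 ± 0.27 (limma adjusted p = 0.16) and 1.06 ± 0.26 (limma adjusted p = 0.0011). On the scale used here, the fall of ocn and janB was therefore not seen in the nearest measured gene on either side. ZIPIC and Sry-alpha in Os+bgcn turned to -1.15 and -0.44 when centred on ribosomal protein genes. That centring moved the median of all tested probe sets from 0.46 to -1.56 in bgcn, beside 0.43 to -1.07 in Os+bgcn. The bgcn values of both genes therefore rest on the scaling too. Centred on array medians, ZIPIC in Os+bgcn was 0.12 and no longer passed (limma adjusted p = 0.38).

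Further along, the zinc finger genes Sry-beta and Sry-delta were higher, by 1.46 ± 0.27 and 1.17 ± 0.20 in bgcn (limma adjusted p = 8.0e-05 and 3.3e-05). In Os+bgcn they were higher by 1.92 ± 0.26 and 1.08 ± 0.19 (limma adjusted p = 1.4e-06 and 4.4e-05). RpL32, a ribosomal protein gene, spanned 1416.0 to 1695.5 on wild-type, 3575.6 to 9197.2 on bgcn and 1393.6 to 8546.9 on Os+bgcn arrays, so that the wild-type and Os+bgcn arrays overlapped. Its difference was 1.81 ± 0.34 in bgcn (limma adjusted p = 8.4e-05) and 0.84 ± 0.32 in Os+bgcn (limma adjusted p = 0.026). The Os+bgcn call was lost without Os+bgcn replicate 5, where the difference was 0.53, and without wild-type replicate 2, where it was 0.81. Centring on array medians removed it too, at 0.62 (limma adjusted p = 0.092). Under the ribosomal centring Sry-delta and RpL32 turned negative in both mutants, and Sry-beta in bgcn. RpL32 is itself among the ribosomal protein probe sets centred on. Its value there is set against its own class and is no separate check of its change.

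**Figure D3:**
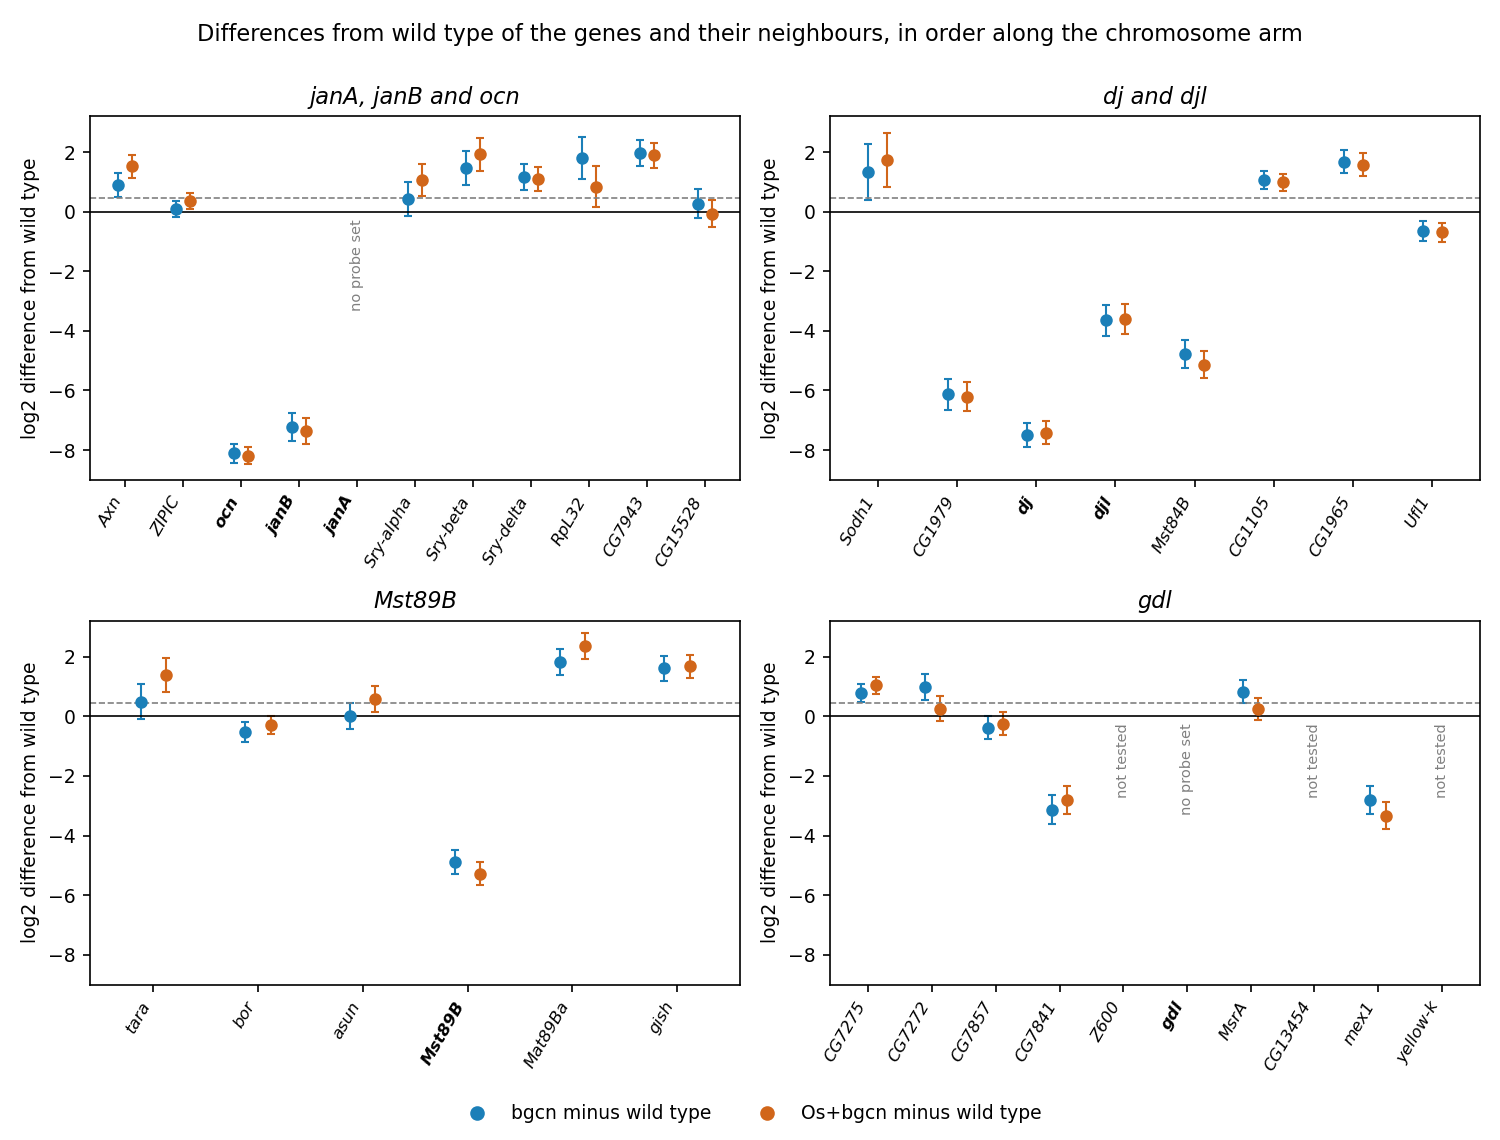
Differences from wild type, on the log2(signal + 18.8) scale with limma's 95% intervals, of the genes studied (bold) and their neighbours in annotated order, without spacing to scale. Blue is bgcn and orange Os+bgcn, the dashed line is the median of all tested probe sets in bgcn (0.46), janA, gdl and neighbours below the filter are written in grey, and neighbours without a probe set are left out. ocn, janB, dj, djl and Mst89B stand far below most neighbours, CG1979 and Mst84B lie low beside dj and djl, and the positive differences near 0 to 2 turn negative in part when centred on ribosomal protein genes.

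In the don juan neighbourhood genes on both sides of dj and djl fell too. The order is Sodh1, CG1979, dj, djl, Mst84B, CG1105, CG1965 and Ufl1. CG1979, next to dj, gave 2236.5 to 3859.6 on wild-type, 17.9 to 42.0 on bgcn and 3.3 to 46.1 on Os+bgcn arrays, and differed by -6.13 ± 0.24 and -6.21 ± 0.23 (limma adjusted p = 1.5e-14 and 5.1e-15). Mst84B, next to djl and named for a male-specific transcript, gave 846.0 to 1088.6, 2.3 to 31.8 and 4.4 to 17.6, and differed by -4.79 ± 0.23 and -5.13 ± 0.22 (limma adjusted p = 2.2e-13 and 3.1e-14). The 4 adjacent genes CG1979, dj, djl and Mst84B were thus all lower in both mutants, and CG1979 and Mst84B had also passed the filter only through the wild-type arrays.

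This run ended at CG1105, whose annotated span overlaps that of Mst84B. CG1105 gave 145.6 to 202.0 on wild-type, 265.9 to 479.9 on bgcn and 309.7 to 401.4 on Os+bgcn arrays, and was higher by 1.05 ± 0.14 and 0.98 ± 0.14 (limma adjusted p = 1.9e-06 and 2.7e-06), turning to -0.96 and -0.52 under the ribosomal centring. Sodh1, on the far side of CG1979, was higher by 1.33 ± 0.45 in bgcn and 1.73 ± 0.43 in Os+bgcn (limma adjusted p = 0.014 and 0.0014), and in bgcn turned to -0.69 under that centring. Ufl1, at the other end of the neighbourhood, was lower by -0.65 ± 0.16 in bgcn and -0.69 ± 0.16 in Os+bgcn (limma adjusted p = 0.0015 and 5.5e-04). CG1965, between CG1105 and Ufl1, was higher in both mutants, but it passed the filter only through the mutant arrays. Whether the probes of overlapping genes read only 1 of them was not checked.

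Mst89B lies between asun and Mat89Ba and overlaps Mat89Ba in the annotation. Mat89Ba, named for a maternal transcript, went the other way. It gave 12.6 to 31.2 on wild-type, 77.4 to 204.3 on bgcn and 151.3 to 243.3 on Os+bgcn arrays. Mat89Ba therefore passed the filter only through the mutant arrays, so once tested it had to differ. It was higher by 1.81 ± 0.21 in bgcn (limma adjusted p = 2.0e-07, but -0.20 under the ribosomal centring) and by 2.35 ± 0.20 in Os+bgcn (limma adjusted p = 2.0e-09). asun, on the other side, differed by 0.01 ± 0.21 in bgcn (limma adjusted p = 0.98) and 0.59 ± 0.20 in Os+bgcn (limma adjusted p = 0.014). The latter was -0.91 under that centring and lost its call without wild-type replicate 5, at 0.45 (limma adjusted p = 0.054). Quantile normalization (0.37) and centring on array medians (0.36) also removed the asun call (limma adjusted p = 0.12 for each). Neither gene beside Mst89B fell with it on the scale used here, but for Mat89Ba the filter left only a rise to be seen.

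gdl itself had no probe set, and the nearest measured genes on either side of it are Z600 and MsrA. Z600, an inhibitor of mitosis in the embryo whose annotated span overlaps gdl, gave at most 11.1 on any array and was not tested. MsrA, a methionine sulfoxide reductase gene, was higher by 0.82 ± 0.19 in bgcn (limma adjusted p = 5.6e-04, but -1.20 under the ribosomal centring) and differed by 0.24 ± 0.18 in Os+bgcn (limma adjusted p = 0.23). Further out, CG7841 was lower by -3.14 ± 0.24 and -2.81 ± 0.23 (limma adjusted p = 2.8e-10 and 6.7e-10), and mex1, named for its midgut expression, by -2.82 ± 0.23 and -3.33 ± 0.22 (limma adjusted p = 8.1e-10 and 2.5e-11). mex1 had passed the filter only through the wild-type arrays, so once tested it had to differ. Around Mst36Fa and Mst36Fb 4 neighbour probe sets were tested, 2 of them higher in bgcn and 3 in Os+bgcn and none lower. The 2 in bgcn were tos and msl-1, which gave at most 14.0 and 42.3 on wild-type arrays. Both therefore passed the filter only through the mutant arrays, so once tested they had to differ. Under the ribosomal centring they turned to -0.36 and -0.51 in bgcn. None of these values stands in for gdl or the Mst36F genes.

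Between the mutants, 3 of the 29 tested neighbour probe sets were higher in Os+bgcn, 3 were lower and 23 did not pass, where 11.6% of all tested probe sets were higher and 8.91% lower. In the janus-ocnus neighbourhood these were Axn, higher by 0.62 ± 0.19 (limma adjusted p = 0.023), and RpL32, lower by -0.96 ± 0.32 (limma adjusted p = 0.041), and in the don juan neighbourhood none of 6 passed. The Axn call was lost without bgcn replicate 1, bgcn replicate 5, Os+bgcn replicate 1 or Os+bgcn replicate 2, with differences of 0.56, 0.53, 0.51 and 0.57, and the RpL32 call in 16 of the alternatives tried.

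For janB, ocn and dj, the genes with the most similar pattern over the 16 arrays were taken by Pearson's r of log2 values, as a description. The 5128 genes compared left out the genes studied and all genes named only by a CG or CR number. For janB the highest r, 0.9972, was with betaTub85D, the testis-specific beta-tubulin, followed by Prosbeta4R1, Trf4, cocoon and Prosbeta4R2. For ocn it was 0.9988 with ttm2, followed by Pglym87, Vha36-2, Rsph4a and schuy, and for dj it was 0.9978 with Tim13, followed by Grx1t, Hsp60D, bb8 and schuy. All of these genes share the step between wild type and the mutants, on which r over these arrays depends. betaTub85D gave 6865.8 to 7966.3 on wild-type, 4.7 to 39.6 on bgcn and 1.1 to 26.9 on Os+bgcn arrays.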

How the data were processed

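The authors deposited 1 signal intensity per probe set and array, on a linear scale, made with MAS5 per the submitters' processing notes, which give no version. The trimmed mean of each array (2% off each side) was 148.3 to 149.2, so the arrays had been scaled to a common level. Probe sets were named through the platform annotation and gene identifiers of the RefSeq Release 6 table. Of 13966, 12443 carried 1 symbol, 327 several and 1196 none. Groups follow the sample titles.

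Signals were used as log2(signal + 18.8), the pooled 25th percentile. A probe set needed 5 arrays above 42.9, the 40th percentile. This kept 10422 and left out 3544 probe sets. limma 3.58.1 in R 4.3.3 fitted 1 coefficient per group with an intensity trend, and an adjusted p under 0.05 passed. janB and ocn were compared with exact permutation tests. Python 3.11.15, scipy 1.17.1 and matplotlib 3.10.9 were used. The fit was tested on simulated data.

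The genes and gene lists were chosen with earlier results of these data known. Named genes are the 9, their neighbours, up to 2 list members with the largest change per comparison and the 5 most alike. The neighbourhoods of dj, djl, Mst89B and the Mst36F genes were added, and S-Lap5, aly and tomb named, after values were seen. The arrays were not treated as paired by replicate number. Over 15 same-numbered pairs the correlation of deviations from the group means was -0.107 to 0.201. Over 70 differently numbered pairs it was -0.196 to 0.212. The number of arrays limits the precision. Alternatives changed the pseudocount, scaling, filter, trend, arrays and replicate block. Sequences and promoter motifs were not used here.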

Additional observations from a re-analysis of the deposited data

Results flagged for a closer look

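In groups of 5 or 6 arrays, 6 of 114 combinations of probe set and group held 1 array far from the others, and chance alone gives about 1 in 20. None of them belongs to dj, djl, janB, ocn or Mst89B. Beside gdl, Z600 was 7.5 on Os+bgcn replicate 4, where the other arrays of the group gave 2.9 to 4.2, and 5.8 on bgcn replicate 5, against 2.8 to 3.6. Also near gdl, mex1 was 10.9 on Os+bgcn replicate 4, against 1.7 to 4.7, and yellow-k was 2.1 on wild-type replicate 1, against 6.9 to 8.0. All of these signals lie below 18.8, the 25th percentile of all values. Beside the Mst36F genes, CG43338 was 78.3 on wild-type replicate 2, against 14.3 to 23.1, and tos was 102.4 on Os+bgcn replicate 1, against 69.3 to 80.4.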

How the results depend on the processing

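All 5 measured genes were lower in each mutant under every alternative run, and 0 of 5 passed between the mutants in any of them, although 1 of 5 had an unadjusted limma p under 0.05 in some, as with no pseudocount. Their differences from wild type ranged from -10.90 to -7.90 for ocn, -9.66 to -7.41 for dj, -9.23 to -7.02 for janB, -6.92 to -4.74 for Mst89B and -5.72 to -3.55 for djl in bgcn. In Os+bgcn they ranged from -11.25 to -7.95 for ocn, -9.58 to -7.31 for dj, -8.86 to -7.16 for janB, -7.37 to -5.09 for Mst89B and -5.86 to -3.51 for djl. With the replicate number as a block (replicate block) 5, 5 and 0 of the genes passed in the 3 comparisons, as without it, and the block changed no call of theirs. Without bgcn arrays 1 and 2, a choice made after seeing the data, the bgcn difference was -7.40 for janB and -5.08 for Mst89B, and 5 of 5 still passed. The janB minus ocn shift, 0.90 in bgcn and 0.83 in Os+bgcn, was 2.72 and 2.76 with no pseudocount, so its size is not measured by these arrays.

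Of the 28 late spermatogenesis genes, 3 passed between the mutants, but 5 when centred on ribosomal protein genes and 1 when only the groups compared were fitted. Leaving out 1 array at a time gave 1 to 4. The cause was not tested.

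Scaling moved the median of all tested probe sets from 0.46 in bgcn and 0.43 in Os+bgcn to 0.32 and 0.27 (quantile normalization), 0.23 and 0.20 (centred on array medians) and -1.56 and -1.07 (centred on 37 ribosomal protein probe sets). The last moved the share of calls that were higher in bgcn from 67.6% to 3.1%, in Os+bgcn from 66.1% to 13.2%, and between the mutants from 56.6% to 91.2%. Under it 15 neighbour differences that had passed in bgcn turned, and differences that had not passed are not counted here. Axn turned to -1.12, Sry-beta to -0.56, Sry-delta to -0.85, RpL32 to -0.21 and CG7943 to -0.06. Sodh1 turned to -0.69, CG1105 to -0.96, CG1965 to -0.34, Mat89Ba to -0.20 and gish to -0.41. CG7275 turned to -1.24, CG7272 to -1.04, MsrA to -1.20, tos to -0.36 and msl-1 to -0.51. In Os+bgcn 9 that had passed turned. ZIPIC turned to -1.15, Sry-alpha to -0.44, Sry-delta to -0.41, RpL32 to -0.65 and CG1105 to -0.52. The others were tara to -0.11, asun to -0.91, CG7275 to -0.45 and CG31751 to -0.68. RpL32 is itself among the probe sets centred on. The ribosomal centring takes 1 constant from all values of an array. The neighbours' median therefore had to stay 0.32 and 0.42 above that of all tested probe sets. Under quantile normalization the gap was 0.28 in bgcn and 0.54 in Os+bgcn. The mutant signals of the measured genes lie near the floor, which limits every fold change of theirs and any comparison between the mutants.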
